A study of Mus musculus with 8 samples.

Results

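The regions described here lay at the ends of protein-coding genes and carried both H3K27ac and H3K9ac in every peak list of the series. They were found by merging overlapping H3K27ac peaks of all 8 H3K27ac lists on chromosomes 1 to 19, X and Y. A merged region was kept when it was under 5 kb wide, had a peak in all 8 H3K27ac lists, overlapped a peak in each of the 8 H3K9ac lists, and lay within 1 kb of an end of a protein-coding RefSeq gene (GRCm38). Of 112301 merged H3K27ac regions, 2853 (2.54%) met the rule. They reached 3521 of 21887 protein-coding genes (16.1%). Presence in the lists, the width limit and the gene-end distance chose the regions, so members were chosen by these measured values, which are given as descriptions and support nothing.

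H3K27ac and H3K9ac are acetylations of the tail of histone H3. Both are placed by lysine acetyltransferases, removed by deacetylases, and found at promoters of transcribed genes. H3K27ac is also widespread at active enhancers, whereas H3K9ac is concentrated closer to transcription start sites. In the intestinal crypt, stem cells and their dividing progeny renew the epithelium, and absorptive enterocytes form the larger part of the cells that leave it.

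The marks were mapped by CUT&Tag, which inserts sequencing adapters with an antibody-tethered transposase at the chromatin an antibody has bound. The cells were small intestinal epithelial cells taken from the crypts of male C57BL/6J mice aged 9 weeks, detached with EDTA and dissociated with trypsin. Mice were Fed or Fast for 24 h, each without tetracycline or with 21 days of tetracycline, a broad-spectrum antibiotic. This gave 4 groups per mark with 1 sample each, and each sample had 2 peak lists, numbered 1 and 2. Below, Fed and Fast with no mention of tetracycline in a series of 4 groups are the groups without it. No genetic change is named, and all groups share strain, sex and age. Isolated crypts hold several epithelial cell types, and a difference in cell mixture cannot be told apart from a difference within 1 cell type.

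The labels do not say whether lists 1 and 2 came from different mice, so spread was taken over lists, and a p-value measures only the variation between lists, which may be technical. The lists held 17249 to 99050 peaks, and the sequencing depth behind them is not known. At the regions, list 1 was narrower than list 2 in the same group for both marks, in all 8 pairs. The part of the list number in any result was not tested. Among 18 markers of epithelial identity, 17 had H3K27ac at a gene end in all 8 lists. None of 14 fibroblast, muscle and vessel markers and none of 10 markers of neurons and other tissues had it, and 1 of 15 immune markers did (Cd79a). Another 10 immune markers, such as Ptprc and Cd3e, had H3K27ac in 1 to 7 lists, and their part in the results was not tested.

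Promoters of 8 genes show the range of sequence at these regions. They are the 200 bases before the start site, 5′ to 3′ on the gene's strand, from RefSeq (GRCm38.p6). They were picked after their values were seen, from 46 promoters of named genes that had 1 start site and a searched motif. Capitals mark matches on either strand to any of 4 short motifs. They are TATAAA, the core promoter element, and CCAAT, which NF-Y binds. The others are the GC box GGGCGG, read by Sp and KLF factors, and the ETS family's CCGGAAG. A match is a string of letters, which does not show that a factor binds there. The first set holds 3 genes of absorptive enterocytes, namely Sis (sucrase-isomaltase, a brush-border disaccharidase), Fabp1 (liver-type fatty acid-binding protein) and Apob (the structural protein of chylomicrons). Its last gene is Sfn (14-3-3 sigma, an epithelial cell-cycle regulator).
Sis (chr3:72967864-72968063, - strand): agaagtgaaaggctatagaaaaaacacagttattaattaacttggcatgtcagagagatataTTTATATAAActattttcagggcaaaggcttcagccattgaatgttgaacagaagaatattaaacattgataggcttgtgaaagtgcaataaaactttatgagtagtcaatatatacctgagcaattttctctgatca
Fabp1 (chr6:71199679-71199878, + strand): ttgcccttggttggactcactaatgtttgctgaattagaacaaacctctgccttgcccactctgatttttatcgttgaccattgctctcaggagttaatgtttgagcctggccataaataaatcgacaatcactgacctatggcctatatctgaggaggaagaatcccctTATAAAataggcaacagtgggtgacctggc
Apob (chr12:7977477-7977676, + strand): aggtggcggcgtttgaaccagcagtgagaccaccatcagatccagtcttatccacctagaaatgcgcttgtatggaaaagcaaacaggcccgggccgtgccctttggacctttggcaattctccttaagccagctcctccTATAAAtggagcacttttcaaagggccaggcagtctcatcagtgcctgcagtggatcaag
Sfn (chr4:133602169-133602368, - strand): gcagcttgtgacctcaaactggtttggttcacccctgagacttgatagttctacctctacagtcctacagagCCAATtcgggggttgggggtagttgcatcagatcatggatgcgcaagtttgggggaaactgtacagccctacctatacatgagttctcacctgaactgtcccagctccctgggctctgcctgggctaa

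In this set the CpG ratio, which is the observed number of CG dinucleotides over the number expected from C and G content in the 300-base promoter, was 0.12 for Sis, 0.20 for Fabp1, 0.37 for Apob and 0.19 for Sfn. The TATAAA of Fabp1 began 30 bases before the start and that of Apob 60 bases before it. In Sis, 2 overlapping matches in opposite orientations began 138 and 134 bases before the start. The second set holds Jun (a subunit of the AP-1 transcription factor), Ezr (ezrin, which links microvillar membrane to actin), Srsf5 (an SR splicing factor) and Psmc6 (an ATPase of the proteasome cap).
Jun (chr4:95052223-95052422, - strand): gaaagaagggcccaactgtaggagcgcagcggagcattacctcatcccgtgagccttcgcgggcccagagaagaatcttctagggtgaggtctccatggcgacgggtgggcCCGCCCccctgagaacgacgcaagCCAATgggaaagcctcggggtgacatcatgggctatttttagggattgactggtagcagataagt
Ezr (chr17:6782781-6782980, - strand): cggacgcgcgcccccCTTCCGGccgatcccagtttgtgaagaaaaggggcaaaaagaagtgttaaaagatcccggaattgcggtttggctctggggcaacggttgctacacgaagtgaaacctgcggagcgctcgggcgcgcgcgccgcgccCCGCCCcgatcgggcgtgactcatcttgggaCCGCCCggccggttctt
Srsf5 (chr12:80945299-80945498, + strand): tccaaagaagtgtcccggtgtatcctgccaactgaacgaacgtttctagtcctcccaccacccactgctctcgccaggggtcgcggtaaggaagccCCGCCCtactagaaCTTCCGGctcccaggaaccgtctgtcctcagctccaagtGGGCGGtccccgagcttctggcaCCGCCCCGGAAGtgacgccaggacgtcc
Psmc6 (chr14:45329624-45329823, + strand): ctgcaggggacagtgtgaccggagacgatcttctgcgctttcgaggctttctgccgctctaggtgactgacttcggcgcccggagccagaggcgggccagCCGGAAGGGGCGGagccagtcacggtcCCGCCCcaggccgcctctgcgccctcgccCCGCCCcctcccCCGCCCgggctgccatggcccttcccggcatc

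Their CpG ratios were 0.59 for Jun, 1.10 for Ezr, 0.86 for Srsf5 and 0.73 for Psmc6. Srsf5 held 3 GC boxes and 2 ETS matches, of which the pair nearest the start overlapped. By the rule, the region at each of the 8 start sites had H3K27ac and H3K9ac in every list, though a peak need not cover the printed bases. The regions thus hold promoters with very different CpG ratios.

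Few regions away from the ends of protein-coding genes matched this pattern. A peak in all 8 H3K27ac lists was found in 16401 merged regions, of which 6679 lay within 1 kb of a gene end and 6129 of those were under 5 kb. H3K9ac was present in all 8 lists at 2853 of the 6129 (46.5%). Among 9286 regions under 5 kb with H3K27ac in all 8 lists but over 1 kb from gene ends, it was present in all 8 lists at 487 (5.24%). Another 1527 gene-end regions (24.9%) missed 1 H3K9ac list, and 21 had no H3K9ac peak. The plot of H3K9ac list counts shows that gene-end regions rose towards 8 lists while the distant regions peaked at 2.

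**Figure D1:**
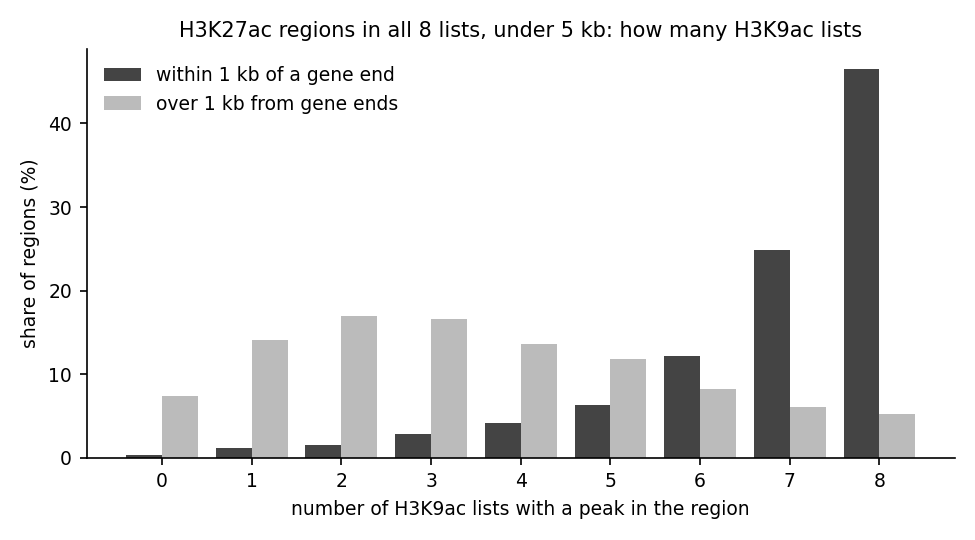
Number of H3K9ac lists with a peak (x axis) at regions with H3K27ac in all 8 lists and under 5 kb, as a share of regions in percent (y axis). Dark bars are the 6129 regions within 1 kb of a gene end, of which 46.5% had all 8 lists, and light bars are the 9286 regions farther away, of which 5.24% did.

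The list missing at a region with 7 H3K9ac lists was most often Fast with tetracycline list 2, at 489 of the 1527 (32.0%). Fast without tetracycline list 2 followed with 314 (20.6%) and Fast without tetracycline list 1 with 228 (14.9%). Fed without tetracycline list 2 was the missing one at 22 regions. The shortest list, Fed without tetracycline list 1 with 17249 peaks, was missing at 146, and Fast with tetracycline list 2 held 53313 peaks. The 3 H3K9ac lists missing most often were Fast lists, and the remaining Fast list was missing at 140 regions. No test of this count by feeding was made, because the rule uses it.

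Near the limits of the rule, the widest regions kept were Ubald1 and Il4ra (the interleukin-4 receptor alpha chain), both 4992 bp wide. The narrowest left out were Slc35e1/Med26 at 5003 bp and Dnajb4/Fubp1 at 5007 bp. The regions farthest from a gene end were those of Rab21 and Otud5, each at 996 bp. Just outside lay regions 1008 bp from Ptpn1 and 1016 bp from Ccdc15. With 7 H3K9ac lists, the widest H3K27ac was at Igsf9/Tagln2 (mean 4560 bp, missing in Fast without tetracycline list 1) and Atp5b/Baz2a (4471 bp, missing in Fast without tetracycline list 2). A name with a slash is a region within 1 kb of ends of several genes, whose signals cannot be separated.

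The regions held a small share of the H3K27ac peaks and a large share of the top H3K9ac peaks. Between 5.14% and 10.4% of an H3K27ac list's peaks, and between 3.81% and 18.8% of an H3K9ac list's, overlapped one. Among the 1000 peaks of highest score in a list, the share was 10.7% to 21.0% for H3K27ac and 47.1% to 56.7% for H3K9ac. These shares are descriptions that are not independent of the rule. It asked for a peak in every list of both marks and left out regions of 5 kb or more. The score is the authors' value per peak, with no stated unit, and serves here only to rank peaks within a list. From the side of H3K9ac, 4511 merged H3K9ac regions were present in every H3K9ac list, and 2808 (62.2%) of these overlapped one of the regions. A single peak covered the region in 78.6% to 89.2% of cases by H3K27ac list and in 71.1% to 87.1% by H3K9ac list.

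Most of the regions were promoters. RefSeq start sites with strand placed 2316 of the 2853 regions within 1 kb of a start site. Another 49 lay within 1 kb of only the far end of a gene, so 97.9% of those classified were at a start. The other 488 had no listed start nearby and a gene without any listed start, and were not classified. The 97.9% thus leaves out only regions without a listed start nearby and does not hold for all 2853. The comparison regions were 3276 that differ in the rule only by H3K9ac in 0 to 7 lists. Of these, 2303 had a start site (85.7% of those classified), and 588 were not classified for the same reason. At 320 of the 2316 (13.8%), start sites on opposite strands lay within 1 kb of each other, as in divergent gene pairs such as Mttp/Trmt10a; the share was 8.12% in the comparison regions. These shares were not tested, since regions are not replicates.

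Around the start site, H3K9ac reached less far upstream than H3K27ac. At 1921 regions with starts on 1 strand, the start lay inside a peak in 97.8% to 99.4% of regions by H3K27ac list and in 91.9% to 98.8% by H3K9ac list. Median reach upstream was 558 to 713 bp for H3K27ac and 467 to 597 bp for H3K9ac. H3K9ac was shorter upstream in 8 of 8 pairs of lists of the same group and number, by 110 bp on average (difference -181 to -47.5 bp; exact sign-flip permutation test, two-sided, n = 8 pairs, p = 0.0078, the smallest it can give). Downstream reach was 665 to 998 bp for H3K27ac and 683 to 1014 bp for H3K9ac, with H3K9ac longer in 4 of 8 pairs (mean difference -33.4 bp, exact permutation p = 0.32). Both marks reached farther downstream than upstream in every list, by 227 bp on average for H3K27ac and 304 bp for H3K9ac. These measures were added after the data were seen, and their p-values are not adjusted. The regions were built from H3K27ac peaks, which H3K9ac only had to overlap, so a comparison of the marks is not independent of the rule. The 8 pairs come from 4 samples per mark, and the list number pairs nothing in the labels. The titles name mouse IgG for H3K27ac and rabbit IgG for H3K9ac, and the part of the antibodies was not tested.

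**Figure D2:**
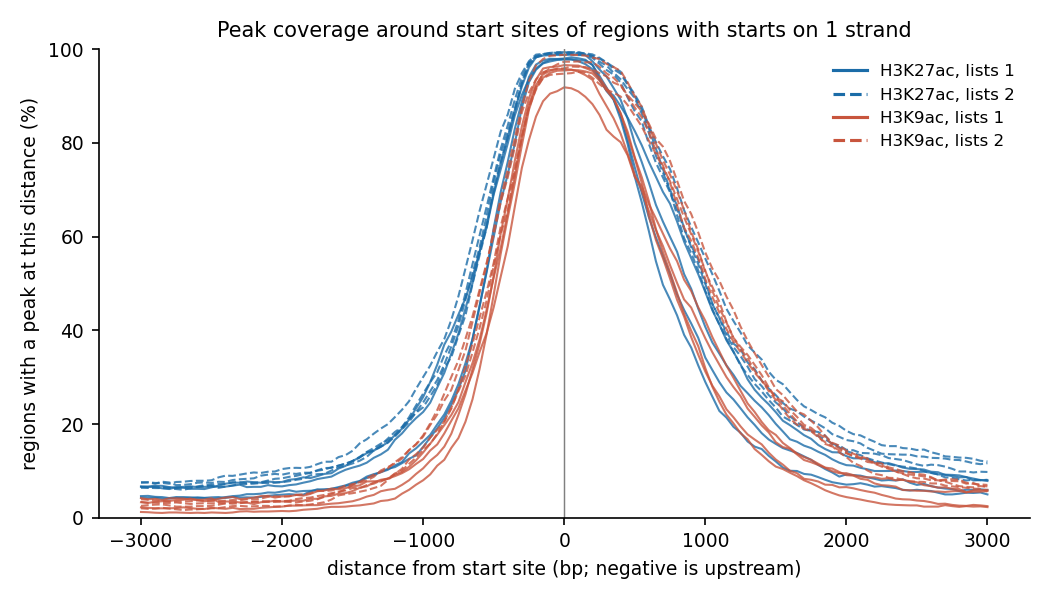
Share of 1921 regions with a peak (y axis, percent) by distance from the start site (x axis, bp, negative upstream); each line is 1 of 16 lists, blue H3K27ac and red H3K9ac, solid lists 1 and dashed lists 2. The median reach upstream was 467 to 597 bp for H3K9ac and 558 to 713 bp for H3K27ac, and downstream the 2 sets of lines overlap.

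H3K27ac reach was longer in Fast than in Fed in each of 4 same-numbered pairs, without passing a test. Upstream it was 559 and 655 bp in Fed and 648 and 713 bp in Fast, and with tetracycline 558 and 636 bp in Fed and 634 and 679 bp in Fast (lists 1 and 2). Downstream it was 716 and 935 bp in Fed and 855 and 998 bp in Fast, and with tetracycline 665 and 952 bp in Fed and 810 and 969 bp in Fast. Within lists of 1 number the values of Fed and Fast did not overlap upstream or downstream, while over both numbers they did. Fast against Fed differed by 0.15 (log2) upstream and 0.16 downstream for H3K27ac (p = 0.222 and 0.333 by exact permutation, which includes the difference between list numbers in the spread). Over the 4 pairs of the same number the exact sign-flip permutation p was 0.125 for both, the smallest it can give. The H3K9ac differences were 0.0078 and -0.0093 (exact permutation p = 1.0 for both). H3K9ac reach was longer in Fast in 1 of 4 pairs, both upstream and downstream. Without pairs, the smallest p that this design allows is 0.056.

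The size of a region was measured as covered length, the bases of a list's peaks that overlap it. H3K9ac peaks were taken whole and can run past the region. Mean H3K27ac length over 8 lists ran from 622 to 4552 bp (median 1701) and mean H3K9ac length from 511 to 5143 bp (median 1552). The 2 lengths rose together across the 2853 regions (Pearson r = 0.83, Spearman rho = 0.83), and the score ranks less so (r = 0.44, rho = 0.43). These are descriptions over regions that share libraries, with no test. The 2 lengths are not independent, since a longer H3K27ac region leaves more room for H3K9ac peaks to overlap it.

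**Figure D3:**
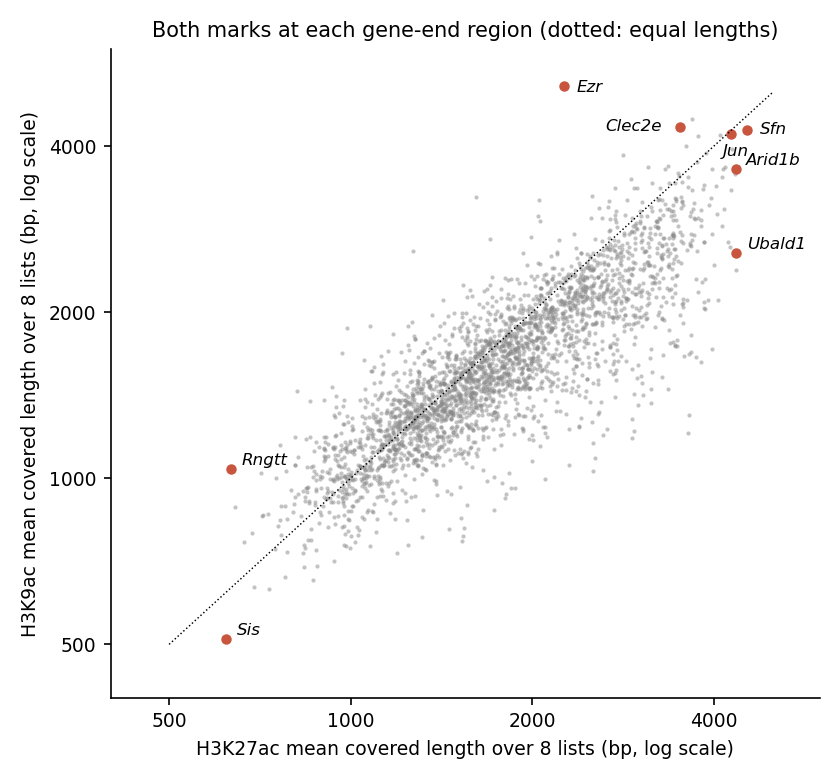
Mean covered length over 8 lists of H3K27ac (x axis, bp, log scale) and H3K9ac (y axis, bp, log scale), 1 point per region and named regions in red. Points follow the dotted line of equal lengths, with Sis lowest on both axes and Ezr far above the line.

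Sfn was the widest region by H3K27ac and among the 5 widest by H3K9ac. Its H3K27ac length was 4123 and 4569 bp in Fed, 4585 and 4922 bp in Fast, 4175 and 4696 bp in Fed with tetracycline, and 4505 and 4839 bp in Fast with tetracycline (lists 1 and 2). Its H3K9ac length lay between 3845 and 4757 bp, so both marks were long in every list. Sfn and Slc39a4, the intestinal zinc importer, had the highest mean H3K27ac score ranks, both at percentile 97.3 among the 2853 regions. Slc39a4 had 3610 to 4630 bp of H3K27ac and 2287 to 3284 bp of H3K9ac. Ubald1, Arid1b (a subunit of BAF chromatin remodellers), Dhrs11 and Serpinb1a completed the 5 widest by H3K27ac, with means of 4334 to 4362 bp.

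Ezr stood out by H3K9ac. The H3K9ac length at Ezr was 5143 and 5697 bp in Fed, 3186 and 5525 bp in Fast, 2229 and 8504 bp in Fed with tetracycline, and 2851 and 8010 bp in Fast with tetracycline. Its H3K27ac length ran from 1740 to 2693 bp, below the H3K9ac length in all 8 lists of the same group and number. Clec2e was also among the 5 widest by H3K9ac, with a mean length of 4333 bp. Jun was wide for both marks, with 3549 to 4684 bp of H3K27ac and 3632 to 4476 bp of H3K9ac.

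Sis was the narrowest region for both marks. Its H3K27ac length was 539 and 505 bp in Fed, 924 and 576 bp in Fast, 652 and 450 bp in Fed with tetracycline, and 490 and 841 bp in Fast with tetracycline. Its H3K9ac length was 372 to 688 bp, and the Fed and Fast ranges overlapped for both marks. Sis lay at percentile 22.0 of H3K27ac score and 58.5 of H3K9ac score. Other narrow regions were at Rngtt (the mRNA capping enzyme), Poc5, Asnsd1/Asdurf and Orc2 (of the origin recognition complex), with mean H3K27ac lengths of 633 to 688 bp.

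The top regions by H3K9ac score were partly the same. Efcab2 ranked among the 5 highest for both marks, at percentile 97.3 for H3K27ac and 98.8 for H3K9ac, with mean lengths of 1659 and 1532 bp. Ino80d (of the INO80 remodeller; percentile 99.5), Kmt2e (98.8), Ppp4r3b (a regulatory subunit of protein phosphatase 4; 98.4) and Slc25a3 (the mitochondrial phosphate carrier; 98.1) were the others by H3K9ac. Cux1, a homeobox factor, was among the lowest by H3K27ac score (2.21), with 557 to 2056 bp of H3K27ac and 651 to 2992 bp of H3K9ac. Ankrd10 had a high H3K27ac rank (77.7) and a low H3K9ac rank (9.21).

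Regions with H3K9ac in all lists also had longer H3K27ac than the 3276 comparison regions. Their median H3K27ac length was higher in 8 of 8 lists, by 0.19 on average (log2; 0.17 to 0.24, a ratio of 1.14). Their median H3K27ac score rank was higher by 10.4 to 13.9 percentile points, again in 8 of 8 lists. Against the 1527 regions with 7 H3K9ac lists alone the differences were smaller, at 0.099 and 7.45. The middle list's median length was 898 bp at regions with no H3K9ac list, 1479 bp with 4 and 1776 bp with 8. This is a description, since a longer region leaves more room to overlap a peak and is thus not independent of the rule.

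Genes of basic cell functions were often among those at the regions. The background is the 16.1% of all protein-coding genes with such a region. The lists below were described by their counts only. Of 86 cytosolic ribosomal protein genes, 44 (51.2%) had one, among them Rpl18, Rps23, Rpl10 and Rpl21. Of 97 subunits of oxidative phosphorylation, 47 (48.5%) did. Among these, Uqcrh/Lrrc41 had the highest H3K27ac rank (percentile 92.2), with 3166 to 4209 bp of H3K27ac and 2942 to 4207 bp of H3K9ac. The counts were 6 of 11 SR splicing factors (54.5%), 14 of 38 aminoacyl-tRNA synthetases (36.8%), 17 of 49 proteasome subunits (34.7%), 27 of 78 mitochondrial ribosomal proteins (34.6%) and 17 of 56 genes named as translation initiation factors (30.4%).

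Other lists ranged from above the background to slightly below it. Of 13 genes named for RNA polymerase II, 4 had a region (30.8%), among them Polr2a, which encodes the largest subunit. Mediator, which links transcription factors to the polymerase, had 7 of 30 (23.3%). Zinc finger genes named Zfp had 82 of 397 (20.7%), and solute carriers, which are membrane transporters, had 54 of 369 (14.6%). Replication-dependent histone genes had 10 of 65 (15.4%), while another 38 (58.5%) had H3K27ac in all 8 lists but H3K9ac in fewer. H2ac6 and H2bc4 share 1 region, as do several neighbouring genes, so gene counts exceed region counts.

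Enzymes that write or remove these acetyl marks were among the genes, at 7 of 30 (23.3%). Ep300, an acetyltransferase for H3K27, had 1915 to 2635 bp of H3K27ac and 2032 to 3603 bp of H3K9ac. The others were Kat7 and Kat2b (acetyltransferases), Hdac2, Hdac3 and Hdac5 (deacetylases) and Sirt7 (an NAD-dependent deacylase, in a region shared with Pcyt2). Hdac2 had 1263 to 2206 bp of H3K27ac.

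Genes of fasting metabolism and of insulin signalling were also present. Of 16 fasting and ketone genes, 4 had a region, all of them in mitochondrial fatty acid oxidation, namely Acadl, Acadvl, and Hadha and Hadhb, which share 1 region. At Acadl, a long-chain acyl-CoA dehydrogenase, H3K27ac covered 1218 and 1315 bp in Fed, 2317 and 2069 bp in Fast, 1371 and 2257 bp in Fed with tetracycline, and 1829 and 2826 bp in Fast with tetracycline. Fed and Fast lists of Acadl did not overlap without tetracycline and overlapped with it. In both states Fast was longer than Fed in each pair of the same list number. Acadl did not pass the limma fit for fasting given below, and a difference between the tetracycline states was not tested. Ppara and Cpt1a had both marks in all lists but at regions of 5 kb or more. Of 24 genes of insulin, FoxO and mTOR signalling, 9 had a region (37.5%), such as Irs2 (an insulin receptor adaptor; 3325 to 3758 bp of H3K27ac) and Akt2.

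Genes that define the epithelium were more often at broader regions. Of 18 epithelial identity genes, only Cdh1 (E-cadherin) and Grhl2 had a region under 5 kb, and 9 had both marks at 5 kb or wider, among them Cdx1, Cdx2, Gata4, Gata6, Klf5 and Epcam. At Cdh1, H3K27ac covered 1870 to 2274 bp and H3K9ac 1460 to 2737 bp. Of 14 absorptive enterocyte genes, 5 had a region (35.7%), namely Sis, Fabp1, Fabp2, Mttp and Apob, and 5 others had both marks at broader regions. Fabp2 had 2 such regions, 1 at its start and 1 at its other end. A single H3K9ac peak of 6417 bp spanned both Fabp2 regions in Fast with tetracycline list 2.

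Markers of the other crypt lineages varied. Of 15 stem cell markers, Myb and Rnf43 (a membrane ubiquitin ligase that dampens Wnt signalling) had a region (13.3%, near the 16.1% of all protein-coding genes). H3K27ac at Myb was 910 bp in Fed list 1 and 2386 to 3801 bp in the other 7 lists, and at Rnf43 it was 914 to 1644 bp. Lrig1 had both marks in all lists at 5 kb or more, and Ephb2 and Znrf3 had H3K27ac in all 8 lists with fewer H3K9ac lists. Another 9, among them Lgr5, Olfm4 and Ascl2, had H3K27ac in 1 to 7 lists, and Msi1 had none. No region was found for 9 Paneth, 10 goblet or 10 tuft cell markers. Of 12 enteroendocrine markers, Sct (secretin) had one, shared with Cdhr5, a protocadherin of brush-border microvilli. The circadian list had 2 of 18 genes with one. None of 39 Hox genes, 1106 olfactory receptors or 53 keratins had one. No H3K27ac peak was found at 94.9% of the Hox genes and 95.7% of the olfactory receptors. Among the keratins, 3 had both marks in all lists at 5 kb or wider, and 6 had H3K27ac in all 8 lists with fewer H3K9ac lists.

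**Figure D4:**
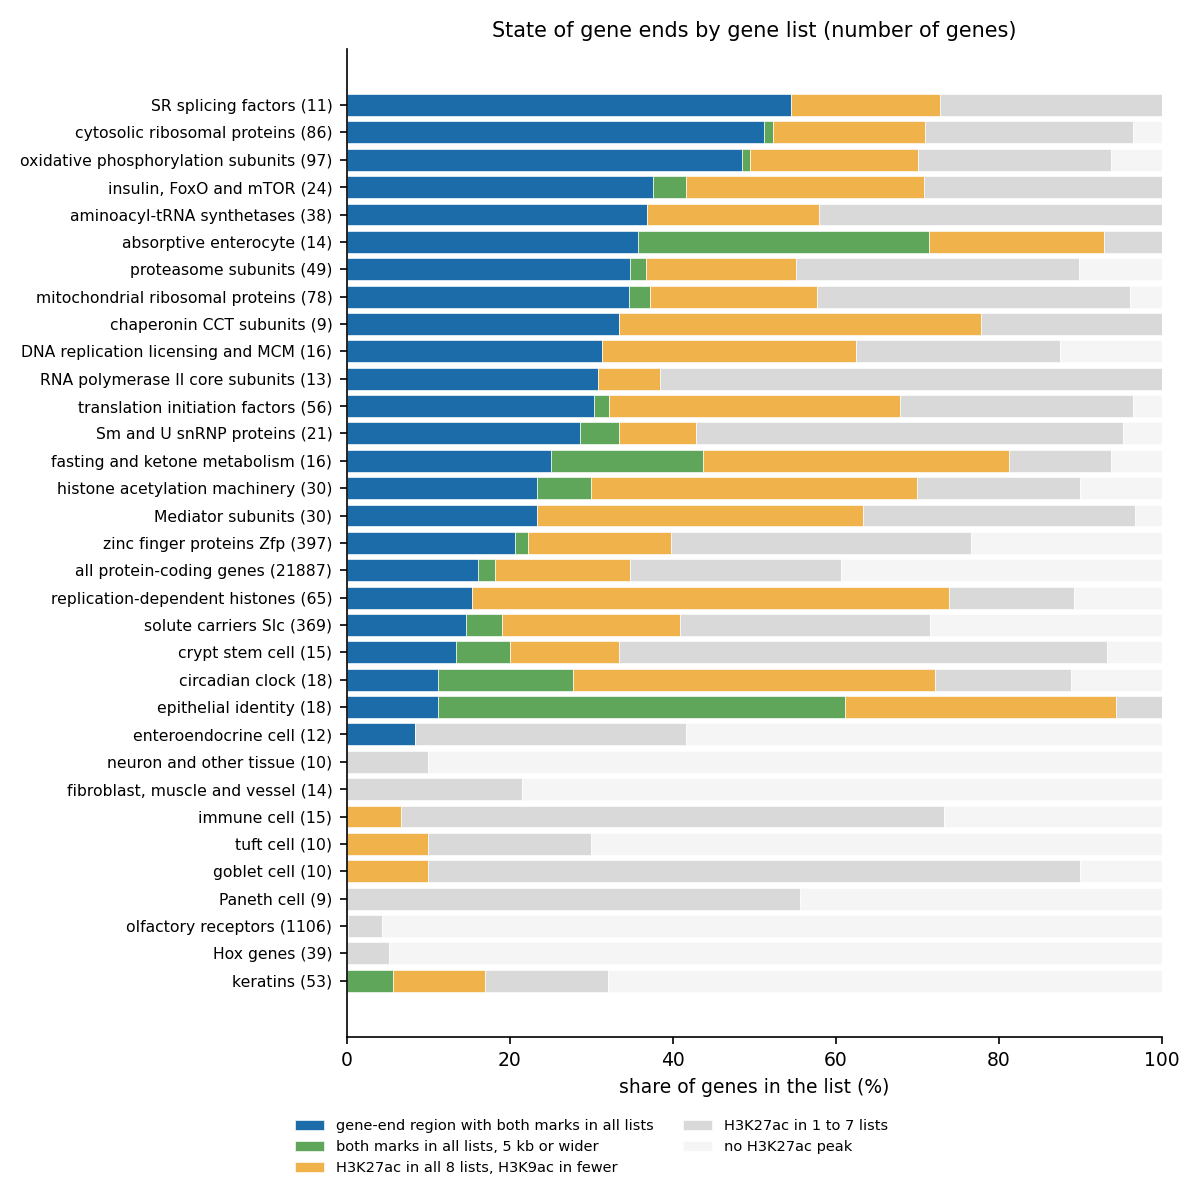
Share of genes in each list (x axis, percent; number of genes in brackets) by the state of their ends, from both marks in all lists under 5 kb (blue) or broader (green), through H3K27ac in all 8 lists with fewer H3K9ac lists (yellow) and H3K27ac in 1 to 7 lists (grey), to no H3K27ac peak (lightest grey). Ribosomal, oxidative phosphorylation and SR splicing genes have the longest blue bars, at 48.5% to 54.5% against 16.1% of all protein-coding genes, and epithelial identity genes the longest green bar, with 9 of 18.

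By chromosome, the share of genes with a region was 12.2% to 20.9% on the autosomes, 7.66% on X (74 of 966) and 0 on Y.

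Promoters at the regions were rich in CpG. For 3176 promoters of 2723 genes at the regions, the median GC content was 62.3% and the median CpG ratio 0.83, and 83.7% had a ratio above 0.6. At the comparison regions the median ratio was 0.78 and 74.7% were above 0.6. Promoters with no H3K27ac region within 1 kb had a median ratio of 0.24, with 18.1% above 0.6. Over all 21263 promoters with a sequence, the median was 0.57 and 47.6% were above 0.6. Of the promoters printed above, those of Sis, Fabp1, Apob, Sfn and Jun do not exceed 0.6.

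Motif shares differed between the sets for some motifs and not for others. Each motif was searched on both strands of the 300-base promoter. GGGCGG was found in 69.6% of promoters at the regions, 68.3% at the comparison regions, 23.2% without H3K27ac and 46.2% of all promoters. CCGGAAG was found in 23.0%, 19.7%, 2.65% and 11.6%, in the same order. TATAAA had the reverse order, with 5.82%, 6.90%, 19.96% and 12.6%. CCAAT was found in 37.3%, 42.8%, 37.8% and 38.2%, so that the regions were close to promoters without H3K27ac. In the same order, the NRF1 palindrome was found in 2.42%, 2.37%, 0.378% and 1.33%, the YY1 motif in 1.83%, 1.73%, 0.0687% and 0.889%, and the CRE TGACGTCA in 4.03%, 3.42%, 1.05% and 2.23%. The E-box CACGTG was found in 10.1%, 11.2%, 4.85% and 7.84%, and the ZNF143 motif in 0.630%, 1.05%, 0.0573% and 0.423%, both with a higher share at the comparison regions than at the regions. GC content differs between these sets, and its part in the shares was not tested.

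Covered length differed with promoter sequence among the regions themselves, by small amounts. These splits were made after the data were seen and are given without a test. The 580 regions with the highest CpG ratios (0.948 or more) had a longer median H3K9ac length than the 579 with the lowest (0.692 or less) in 8 of 8 lists (ratio 1.15). For H3K27ac the ratio was 1.05, also in 8 of 8. Over all 2316 regions the relation was weak, with a Pearson r of 0.076 and a Spearman rho of 0.15 for H3K9ac length, and of -0.029 and 0.044 for H3K27ac length. For GC content the Spearman rho was 0.27 with H3K9ac length and 0.23 with H3K27ac length. Regions with a GGGCGG were longer than those without (1.09 for H3K27ac and 1.06 for H3K9ac) and regions with a CCGGAAG shorter (0.914 and 0.940), each in 8 of 8 lists. Regions with a CCAAT (0.923 and 0.942) or the NRF1 palindrome (0.892 and 0.916, 58 regions) were also shorter in 8 of 8 lists. The other searched motifs did not differ in the same direction in every list for both marks. Divergent start sites went with longer H3K9ac in 8 of 8 lists (ratio 1.07) and with H3K27ac longer in 4 of 8 (0.994).

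The design asks whether fasting alters these marks and whether tetracycline changes the response. Presence cannot answer this here, because the rule fixed it, so the test was made on covered length. Median H3K27ac length per list was 1462 and 1804 bp in Fed and 1756 and 1935 bp in Fast without tetracycline. With tetracycline it was 1413 and 1798 bp in Fed and 1673 and 1796 bp in Fast. As group means this was 1633 ± 242 (SD, n = 2 lists), 1846 ± 127, 1606 ± 272 and 1735 ± 87.0 bp. Fed and Fast ranges overlapped in both tetracycline states.

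The fasting difference in H3K27ac length was 0.15 (log2, ratio 1.11), 0.18 without and 0.12 with tetracycline. It was not larger than the spread between lists (exact permutation, two-sided, p = 0.389, adjusted over 8 tests 0.952), and Fast was longer in 3 of 4 comparisons between same-numbered lists. At constant regions away from gene ends the same difference was nearly as large, the gap between the 2 sets being 0.0033 (exact permutation p = 1.0, adjusted 1.0). Tetracycline gave -0.06 (p = 0.5, adjusted 0.952, exact permutation) and the interaction -0.06 (p = 0.722, adjusted 0.952).

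For H3K9ac length, too, no difference between groups exceeded the spread between lists. The medians were 1328 and 1735 bp in Fed, 1414 and 1660 bp in Fast, 1362 and 1643 bp in Fed with tetracycline, and 1441 and 1769 bp in Fast with tetracycline. Fed and Fast ranges overlapped in both tetracycline states here as well. Fast against Fed was 0.05 (exact permutation p = 0.611), tetracycline 0.02 (p = 0.833), the interaction 0.08 (p = 0.722) and the gap to 487 constant regions away from gene ends 0.05 (p = 0.278), each with an adjusted p of 0.952. With 36 arrangements none of these tests could fall below 0.056.

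**Figure D5:**
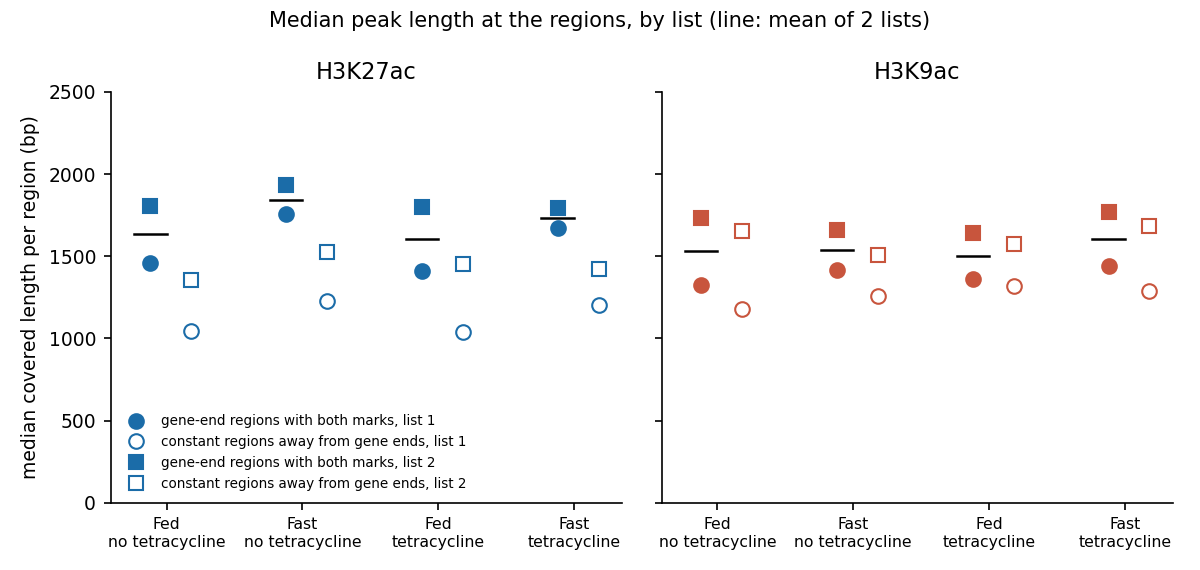
Median covered length (y axis, bp) by group (x axis) for H3K27ac (left) and H3K9ac (right); filled symbols are the 2853 gene-end regions, open symbols constant regions over 1 kb from gene ends (9286 for H3K27ac, 487 with H3K9ac in all lists for H3K9ac), circles lists 1, squares lists 2 and black lines the mean of the 2 filled symbols. Squares lie above circles in every group, and Fed and Fast overlap.

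Region by region, no gene-end region with both marks passed an adjusted p of 0.05 for either factor or mark. The fits used limma on log2 covered length with Benjamini-Hochberg adjustment, over 16401 regions for H3K27ac and 4598 for H3K9ac. In simulated lists such fits recovered 0 of 200 regions changed 1.5-fold, for either mark, so changes of that size can go uncalled. For fasting and H3K27ac, 1 of all 16401 regions (0.0061%) was called wider and it was not among the 2853. With the list number as a block, 2 of all 16401 (0.0122%) and 0 of the 2853 were called wider. At an unadjusted p under 0.05, 159 regions were wider (5.57%, against 7.31% of all regions) and 9 narrower (0.315%, against 0.957%). The median change was 0.13 against 0.11 over all regions, with 76.7% against 69.1% above 0. Centring each list on its median took both medians to the other side of 0 (-0.03 and -0.04) and changed the unadjusted counts to 73 and 81. This centring sets the middle of all regions near 0 by construction. It called 1 of the 2853 wider, where 9 of all 16401 regions (0.0549%) were called. With the list number as a block added to the centring, 0 of the 2853 and 1 of all regions were called wider.

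For tetracycline and H3K27ac, 8 regions were wider and 30 narrower at an unadjusted p under 0.05, where all regions had 0.793% and 1.71%. None was called. For H3K9ac and fasting, 70 were wider (2.45%, against 2.5% of all) and 33 narrower (1.16%, against 2.15%), and 1 region outside the set was called narrower (0.0217% of 4598). For H3K9ac and tetracycline, 43 were wider (1.51%, against 1.81%) and 20 narrower (0.701%, against 0.739%). These shares were near or below those of all regions.

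The regions with the smallest p for fasting are given as values, since none passed. At Rccd1/Unc45a, where Unc45a encodes a myosin chaperone, H3K27ac covered 831 and 1023 bp in Fed, 2261 and 2306 bp in Fast, 718 and 1083 bp in Fed with tetracycline, and 2075 and 1925 bp in Fast with tetracycline. All 4 Fast lists lay above all 4 Fed lists (log2 difference 1.24, SE 0.18, limma adjusted p = 0.154). It is the region called wider after centring (limma adjusted p = 0.0406), a call lost with the list number as a block added (limma adjusted p = 0.0933). H3K9ac there was 711 to 1327 bp in the 4 Fed lists and 1048 to 1449 bp in the 4 Fast lists, which overlap. Septin1/Zfp553 and Cttnbp2nl had the next smallest p (limma adjusted 0.294 and 0.300).

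Tnks (tankyrase, which promotes turnover of the Wnt inhibitor axin) had the smallest p among regions with shorter H3K27ac in Fast. Its lengths were 2208 and 1839 bp in Fed, 770 and 1586 bp in Fast, 1639 and 2104 bp in Fed with tetracycline, and 836 and 689 bp in Fast with tetracycline. Every Fast list was below every Fed list (log2 difference -1.08, SE 0.25, limma adjusted p = 0.320). H3K9ac at Tnks overlapped between the 4 Fed lists (747 to 2030 bp) and the 4 Fast lists (916 to 2198 bp).

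For H3K9ac, Sult1d1 (a cytosolic sulfotransferase) had the smallest p for fasting. Its H3K9ac lengths were 411 and 542 bp in Fed, 1033 and 1026 bp in Fast, 694 and 763 bp in Fed with tetracycline, and 2352 and 1944 bp in Fast with tetracycline. All Fast lists exceeded all Fed lists (log2 difference 1.34, SE 0.19, limma adjusted p = 0.183). H3K27ac at Sult1d1 was 447 to 1058 bp in the 4 Fed lists and 1151 to 1648 bp in the 4 Fast lists, so the groups did not overlap for that mark either (0.87, SE 0.26, limma adjusted p = 0.427). Rps18/Vps52, with a small-subunit ribosomal protein gene, had 1357 and 1444 bp of H3K9ac in Fed, 2713 and 2706 bp in Fast, 1148 and 1419 bp in Fed with tetracycline, and 2254 and 2794 bp in Fast with tetracycline (log2 difference 0.96, SE 0.17, limma adjusted p = 0.618). Its H3K27ac overlapped between the 4 Fed lists (1051 to 1554 bp) and the 4 Fast lists (1094 to 2003 bp). Ttc22 and Ablim1 had the smallest p among regions with shorter H3K9ac in Fast (limma adjusted 0.927 for both).

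For tetracycline the smallest p gave limma adjusted values of 0.9997 for H3K27ac and 0.998 for H3K9ac. Timm50, of the mitochondrial import machinery, had 1200 and 1241 bp of H3K27ac in Fed, 1019 and 1306 bp in Fast, 663 and 813 bp in Fed with tetracycline, and 838 and 753 bp in Fast with tetracycline. Cd38, an NAD glycohydrolase, had 1872 to 2680 bp of H3K9ac without tetracycline and 979 to 1515 bp with it. Neither pair of ranges overlapped, and neither passed the adjustment.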

How the data were processed

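Peak lists of H3K27ac and H3K9ac CUT&Tag were used as deposited, 2 for each of 8 samples. Per the submitters' processing notes the genome build was mm10, and FastQC, Bowtie and SAMtools were used; their versions and the peak caller's settings are not given in the sources used here. Each deposited list gives a chromosome, a start, an end and a score per peak; the score is the authors' own, of at least 50 and with no stated unit. The names of the deposited lists call them downsampled, and the depth is unknown, so counting intervals are left out. IgG libraries were not analysed here, and a few named genes are not reported here.

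Overlapping peaks (at least 1 bp) were merged, lists were mapped to groups from the labels, and the merging was checked against bedtools 2.31.1. Genes were RefSeq protein-coding genes and start sites those of 17492 genes with a RefSeq promoter (GRCm38.p6). Covered length was tested by exact permutation over lists with Benjamini-Hochberg adjustment over 8 tests, and per region by limma 3.58.1 (R 4.3.3). In simulated lists with 200 regions changed by fasting, limma recovered 0 of them at 1.5-fold for either mark. At 2-fold it recovered 36.5% for H3K27ac and 41.5% for H3K9ac. The simulated lists had no offsets between them, unlike the data. Python 3.11.15, numpy 2.4.6, pandas 2.3.3 and matplotlib 3.10.9 were used. Named regions were the 5 highest, lowest, widest and narrowest per mark, the 3 smallest p each way, up to 4 genes per list by H3K27ac score rank, and 2 on each side of every limit; gene list members beyond these were named after their values were seen. The regions and the gene lists were chosen with earlier results of these data known. Alternatives covered overlap, gaps, distance, score, start sites, list number, centring and each list left out.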

Additional observations from a re-analysis of the deposited data

How the results depend on the processing

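The number of regions depended on how many peaks entered. It was 1243 (1557 genes) with the upper 0.5 of each list by score, 1063 (1354 genes) with the same number of top-scoring peaks per list, and 4173 or 4497 without the lists numbered 1 or 2; other alternatives gave 2527 to 3342. Both score filters shorten the lists, and leaving lists out eases the rule, by construction.

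No test of fasting or tetracycline on median width at the regions passed under any alternative, and none could, since the smallest possible p was 0.056 or more. Leaving out lists, the log2 differences ranged for H3K27ac from 0.05 to 0.25 (fasting), -0.14 to 0.029 (tetracycline), -0.24 to 0.11 (interaction) and -0.040 to 0.047 (against other constant regions). For H3K9ac they ranged from -0.043 to 0.15, -0.077 to 0.12, -0.11 to 0.27 and 0.022 to 0.073, in the same order. Signs therefore changed with single lists in 6 of these 8, and the cause was not tested. The H3K27ac difference against other constant regions was -0.0093 with the same number of top-scoring peaks (exact permutation p = 0.944). Per region, 1 was called wider in H3K27ac with fasting after centring each list; this call was lost (0 called) with the list number as a replicate block added to the centring, an alternative chosen after seeing the data, and no region was called under the others.

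Against regions with fewer H3K9ac lists, the differences were 0.18 to 0.20 and 11.8 to 12.2 with lists of 1 number, and 0.099 and 7.45 against regions with 7 H3K9ac lists only. List numbers pair nothing in the labels. Same-numbered lists had deviations correlated at 0.086 to 0.21 (H3K27ac) and 0.056 to 0.20 (H3K9ac) over 6 pairs. With pairs of the same number as a replicate block, fasting in H3K27ac stayed 0.15 (exact permutation p = 0.25) and tetracycline -0.06, lower in 4 of 4 pairs (p = 0.125, the smallest possible). The paired reach from the start site, also chosen after seeing the data, stands in the report.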
